A study of Mus musculus with 57 samples.

Results

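Kupffer-niche recruited macrophages with floxed copies of both LXR genes, with or without a Cre recombinase driven by Clec4f, were compared by RNA sequencing across all genes. The comparison was chosen by its labels, which put 6 of the 57 libraries of the series in it. Clec4f-Cre positive libraries (n = 3) came from mice labelled as carrying that Cre together with floxed LXR alpha and LXR beta. Cre-negative libraries (n = 3) came from mice with the same floxed genes and no Cre, so the floxed alleles are common to both groups. All the mice had received a diet that models non-alcoholic steatohepatitis (NASH) for 20 weeks, and the sorted cells were F4/80-high and Tim4-negative. The title spells the floxed pair LXRaLXRb, while the strain field of the same samples spells it LXRaLBRb. Per the labels' protocols, livers were digested with 1 µM flavopiridol, a blocker of transcription. The remaining libraries hold other sorted macrophages, blood monocytes and whole livers of healthy and NASH mice. Of 24941 genes in the table, each given by its transcript with the highest total count, 11480 had enough counts to be tested.

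LXR alpha (Nr1h3) and LXR beta (Nr1h2) are nuclear receptors that bind oxidised sterols and pair with the retinoid X receptor. They are known to switch on cholesterol efflux pumps, apolipoproteins and the fatty acid synthesis regulator SREBP1c, and LXR alpha is known to maintain the identity of Kupffer cells, which are the liver's resident macrophages. In NASH, monocyte-derived macrophages enter the vacated Kupffer niche and take on Kupffer genes, among them the lectin gene Clec4f that drives the Cre here.

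The 6 libraries stood apart from the rest of the series in their RNA makeup. Malat1, a nuclear long non-coding RNA, took 26800 to 31900 CPM (a share of all counts, scaled to 1e6) in the Clec4f-Cre positive and 23200 to 26200 CPM in the Cre-negative libraries, against 177 to 955 CPM in the other 51. The ribosomal RNA precursor Rn45s took 59800 to 106000 CPM in the Clec4f-Cre positive and 70800 to 116000 CPM in the Cre-negative libraries, against 421 to 18200 CPM elsewhere. Ribosomal protein genes summed to 671 to 914 CPM in the Clec4f-Cre positive and 603 to 869 CPM in the Cre-negative libraries, against at least 1480 CPM elsewhere. The transcript length averaged over all counts was 5270 to 5600 bases in the Clec4f-Cre positive and 5370 to 5730 bases in the Cre-negative libraries, against 3070 to 4310 bases elsewhere. Over 10173 genes, the difference of these libraries from the other Kupffer-niche recruited macrophages had a Spearman correlation of 0.58 with transcript length, whereas the change between the 2 floxed groups had one of -0.078 over 11480 genes (genes of a sample are not independent). Strain, set and library makeup cannot be told apart between these libraries and the others. Both floxed groups share this makeup, although Malat1 was higher in each Clec4f-Cre positive library than in any Cre-negative one. The part of strain, set and library makeup in the results was not tested beyond leaving Malat1 and Rn45s out. Total counts were 2.32, 5.09 and 4.14 M (M stands for 1e6) in the Clec4f-Cre positive and 2.99, 4.32 and 3.66 M in the Cre-negative libraries, the lowest of the series. Within the 6, the first principal component (34.6% of variance) set Cre-negative replicate 1 apart, and the second (31.8%) Clec4f-Cre positive replicate 1.

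Neither receptor gene had a lower count in the libraries labelled Clec4f-Cre positive. In what follows, CPM is scaled by TMM (a correction for the makeup of each library) within the 6 libraries. Nr1h3 (transcript NM_013839, mm10 chromosome 2, 91184061 to 91195035) had 187, 451 and 298 CPM in Clec4f-Cre positive and 247, 282 and 307 CPM in Cre-negative libraries. The ranges overlap, with a log2 change of 0.17 ± 0.28 (SE, edgeR adjusted p = 0.949). Its value ran from -0.27 to 0.44 over 14 other settings and was past the threshold in 0 of them. Nr1h2 (NM_009473, chromosome 7, 44549616 to 44553965) had 61.1, 82.5 and 64.5 CPM in Clec4f-Cre positive libraries, all above the 51.1, 33.3 and 36.6 CPM of Cre-negative libraries, with a log2 change of 0.79 ± 0.24 that did not pass (adjusted p = 0.261). These are counts over all exons of a transcript, and which exons are floxed is not given in the sources used here, so they check neither the loss of an exon nor the labels. The group names stand for the labels throughout. The partner receptor gene Rxra had 416, 967 and 654 CPM in Clec4f-Cre positive and 926, 1230 and 1170 CPM in Cre-negative libraries, with overlapping ranges (adjusted p = 0.547).

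The genes of the gate were read next, and Timd4 RNA was high for a Tim4-negative label in Clec4f-Cre positive replicates 2 and 3. The gate is set on protein, which RNA counts do not measure. Adgre1, which encodes F4/80, had 937, 1310 and 1070 CPM in Clec4f-Cre positive and 1090, 1350 and 1250 CPM in Cre-negative libraries. Clec4f had 398, 2810 and 1680 CPM in Clec4f-Cre positive and 943, 1740 and 1350 CPM in Cre-negative libraries. Timd4, which encodes the Tim4 that the gate leaves out, had 17.2, 304 and 94.3 CPM in Clec4f-Cre positive and 3.52, 5.71 and 16.4 CPM in Cre-negative libraries. With TMM scaling over all libraries of the series, Timd4 ran from 14.3 to 297 CPM in the Clec4f-Cre positive and from 2.95 to 14.8 CPM in the Cre-negative libraries, against 5.03 to 11.4 CPM in 2 other Kupffer-niche recruited libraries, 155 to 237 CPM in the 2 Tim4-positive NASH Kupffer cell libraries of the same set and 104 to 429 CPM in the 3 of NASH Kupffer cells at 20 weeks. Clec4f-Cre positive replicate 2 thus lay within the range of Tim4-positive cells, and the part of such cells in the results was not tested. That library was the highest of the 6 for Clec4f and Timd4, and Clec4f-Cre positive replicate 1 was the lowest for Clec4f.

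Few genes passed the test between the groups, most of them higher with Cre. edgeR's quasi-likelihood test at a Benjamini-Hochberg adjusted p under 0.05 called 20 genes higher (0.174% of those tested) and 4 lower (0.0348%) in Clec4f-Cre positive macrophages, while 947 genes (8.25%) had an unadjusted p under 0.05. DESeq2 called 161 higher (1.4%) and 71 lower (0.618%), among them all 24. The median log2 change of all tested genes was -0.007. In the 24 called genes the 3 Clec4f-Cre positive libraries lay wholly above or below the 3 Cre-negative ones, which also held for 7.17% of all tested genes in the higher and 7.03% in the lower direction. These shares, and the 8.25% at an unadjusted p under 0.05, are the background for the counts of each gene list below. The call depends on single Cre-negative libraries, since edgeR called 0 genes in either direction when Cre-negative replicate 1 or replicate 3 was left out. Without replicate 1, 603 genes were higher and 381 lower at an unadjusted p under 0.05, and without replicate 3 these were 470 and 330 genes. Without Clec4f-Cre positive replicate 3 the calls were 3 higher and 0 lower, and without Clec4f-Cre positive replicate 2 they were 68 higher and 13 lower. Without both libraries that stood apart, Clec4f-Cre positive replicate 1 and Cre-negative replicate 1, they were 4 higher and 3 lower.

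**Figure D1:**
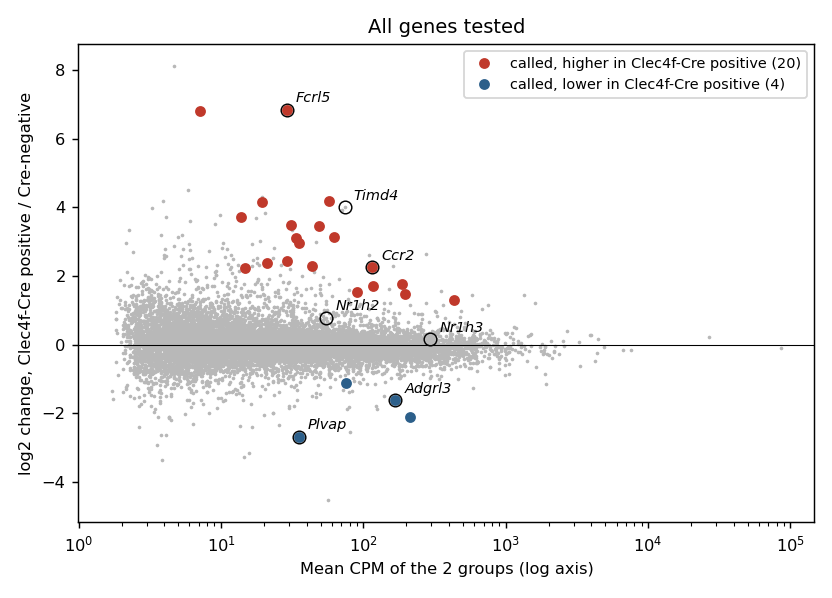
Log2 change between the groups (Clec4f-Cre positive over Cre-negative) against the mean CPM of both (log axis) for each of the 11480 tested genes, grey where not called, red for the 20 called higher and blue for the 4 called lower. Black rings mark named genes, among them Nr1h3 at 0.17 and Nr1h2 at 0.79, which were not called.

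**Figure D2:**
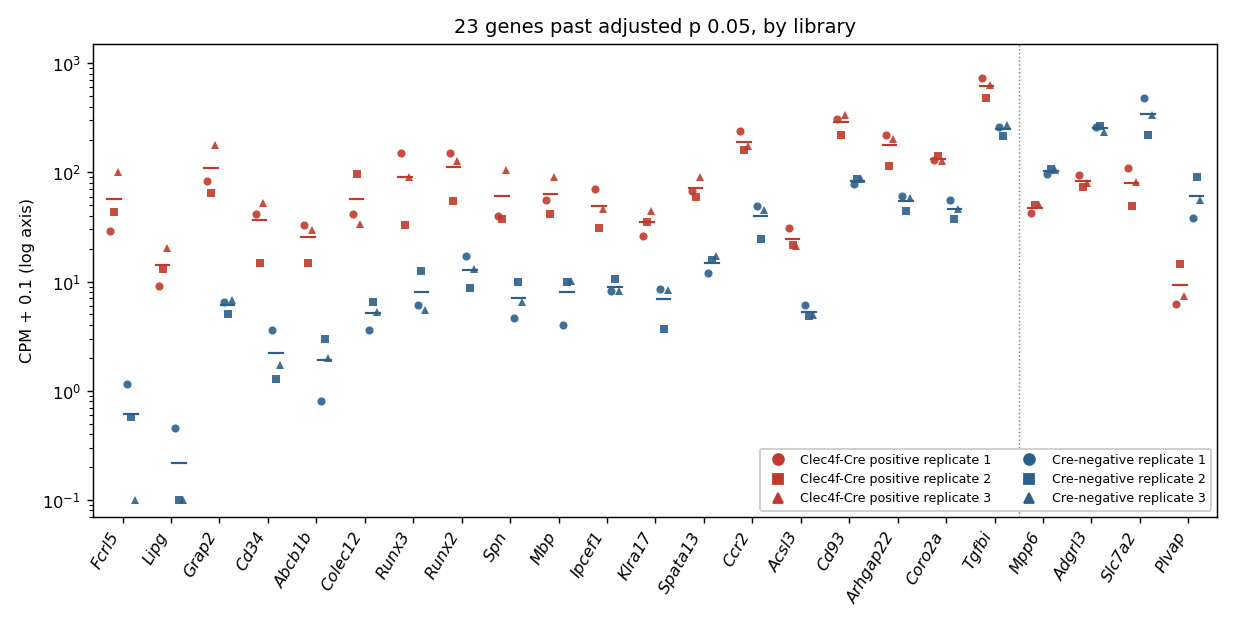
CPM plus 0.1 (log axis) of 23 of the 24 called genes in each library, red for Clec4f-Cre positive and blue for Cre-negative, with a shape for each replicate number and a bar for the mean of 3. The groups do not overlap in any of the 23, and the dotted line parts 19 higher from 4 lower genes.

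Among the called genes, Fcrl5 and Lipg had the lowest levels without Cre. Fcrl5 (NM_183222, chromosome 3, 87435782 to 87467524), an Fc receptor-like gene best known from B cells, had 29.1, 43.2 and 100 CPM in Clec4f-Cre positive and 1.06, 0.476 and 0 CPM in Cre-negative libraries. It rested on 704 against 5 counts, a ratio of 134 with a 95% counting interval of 57 to 413, and the fitted log2 change was 6.85 ± 0.72 (edgeR adjusted p = 0.011). Lipg, which encodes endothelial lipase, had 9.02, 12.8 and 20.4 CPM in Clec4f-Cre positive and 0.352, 0 and 0 CPM in Cre-negative libraries, from 171 against 1 counts. Its ratio was 162, with an interval of 28.8 to 6450 that covers counting error only. Both genes were counted in all 3 Clec4f-Cre positive libraries. The marker list of B and plasma cells, beside Fcrl5, had 4 tested genes with 0 called by edgeR or DESeq2, 0 at an unadjusted p under 0.05, and summed to 137 to 170 CPM in Clec4f-Cre positive and 127 to 161 CPM in Cre-negative libraries.

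The Runt family genes Runx2 and Runx3, transcription factors of blood cell lineages, both rose. Runx3 (NM_019732, chromosome 4, 135120645 to 135177990) had 149, 32.6 and 89.7 CPM in Clec4f-Cre positive and 5.99, 12.4 and 5.38 CPM in Cre-negative libraries, a log2 change of 3.47 ± 0.54 (edgeR adjusted p = 0.0374). Runx2 (NM_001145920, chromosome 17, 44603989 to 44736648) had 151, 54.4 and 128 CPM in Clec4f-Cre positive and 16.9, 8.56 and 12.9 CPM in Cre-negative libraries, a log2 change of 3.13 ± 0.4 (adjusted p = 0.016). In both genes Clec4f-Cre positive replicate 2 was the lowest of its group. The upstream 250 bases of the Runx3 start are shown because they hold the Runt motif itself, in a pair. They come from RefSeq (GRCm38.p6, plus strand, chr4:135120395-135120644), with the motif, read on the opposite strand, in capitals at -135 and -127 from the start:
Runx3: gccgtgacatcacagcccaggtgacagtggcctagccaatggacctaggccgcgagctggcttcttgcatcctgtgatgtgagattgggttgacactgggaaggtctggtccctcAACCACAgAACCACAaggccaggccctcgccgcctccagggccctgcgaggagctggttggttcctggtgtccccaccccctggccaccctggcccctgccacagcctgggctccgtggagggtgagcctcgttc
The motif TGTGGTT, searched on both strands, was found in 1 of the 13 called higher genes that matched a promoter by symbol and start, and in 3.79% of 16375 matched promoters of the table. GAGGAAGT, a motif of the macrophage factor PU.1, was found in 0 of the 13 and in 2.41% of all. Of the 4 lower genes, 2 matched and held neither. A match is a description of these letters and shows no binding.

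Of the genes on 2 monocyte lists, edgeR called only Ccr2, Spn and Cd34, all higher with Cre. Ccr2 (NM_009915, chromosome 9, 124102183 to 124109140), the receptor that draws monocytes to inflamed tissue, had 238, 159 and 173 CPM in Clec4f-Cre positive and 49.3, 24.5 and 44.9 CPM in Cre-negative libraries, a log2 change of 2.27 ± 0.28 (edgeR adjusted p = 0.0153). Spn, which encodes the sialomucin CD43, had 39.8, 37.2 and 104 CPM in Clec4f-Cre positive and 4.58, 9.75 and 6.46 CPM in Cre-negative libraries (3.1 ± 0.46, adjusted p = 0.0309). Cd34, a sialomucin gene of blood progenitors and endothelium, had 41.8, 14.6 and 52.7 CPM in Clec4f-Cre positive and 3.52, 1.19 and 1.61 CPM in Cre-negative libraries (4.15 ± 0.57, adjusted p = 0.0198). All 3 are non-overlapping, with Clec4f-Cre positive replicate 2 again the lowest of its group. Cd34 was not high in the monocytes of this series. With TMM scaling over all libraries it averaged 2.6 CPM in blood Ly6C-high monocytes of NASH mice. The means were 33.4 CPM in other Kupffer-niche and 82.2 CPM in Ly6C-low recruited macrophages. The Ly6C-high monocyte list, which holds Ccr2 and Cd34, had these 2 of 11 tested genes called higher by edgeR and by DESeq2 and a median log2 change of 0.36. Its own defining gene Ly6c2 was not tested, with 0, 1 and 10 counts in Clec4f-Cre positive libraries and 0 in each Cre-negative one. In the Ly6C-low monocyte list of 11 tested genes edgeR called 1 higher, Spn, and DESeq2 2 higher (Cx3cr1 and Spn) and 1 lower (Itgal). The median of that list was -0.36, and 2 of its 11 genes were above 0, against 7 of 11 in the Ly6C-high list. Itgal, an integrin gene, had 900, 1520 and 1580 CPM in Clec4f-Cre positive and 2110, 3030 and 2160 CPM in Cre-negative libraries and did not pass in edgeR (adjusted p = 0.28).

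Further called genes, which no gene list here groups, are given one by one. Grap2, an adaptor of T cell receptor signalling, had the smallest p, with 83.2, 65 and 178 CPM in Clec4f-Cre positive and 6.34, 4.99 and 6.73 CPM in Cre-negative libraries (log2 change 4.18 ± 0.41, edgeR adjusted p = 0.011). The T and NK cell list had 3 tested genes, of which edgeR called 0 and DESeq2 1, with 1 at an unadjusted p under 0.05, and summed to 16.6 to 38.1 CPM in Clec4f-Cre positive and 9.86 to 23.1 CPM in Cre-negative libraries. Spata13, a guanine exchange factor for small GTPases, had 68, 59 and 90.4 CPM in Clec4f-Cre positive and 12, 15.5 and 17 CPM in Cre-negative libraries (2.28 ± 0.26, adjusted p = 0.0118). Cd93, a C-type lectin-like receptor gene of myeloid cells and endothelium, had 310, 220 and 334 CPM in Clec4f-Cre positive and 77.5, 86.6 and 86.7 CPM in Cre-negative libraries (1.78 ± 0.21, adjusted p = 0.0118). Each of these groups is wide apart, the lowest Clec4f-Cre positive library lying above the highest Cre-negative one by more than the range of the Cre-negative libraries. Ipcef1, whose product binds an exchange factor of ARF GTPases, rose by 2.44 ± 0.34. Arhgap22, a GTPase-activating protein for Rac, rose by 1.72 ± 0.27. Coro2a, a coronin known both as an actin-binding protein and as a component of nuclear corepressor complexes, had 130, 141 and 127 CPM in Clec4f-Cre positive and 55.3, 37.3 and 46 CPM in Cre-negative libraries (1.53 ± 0.2, adjusted p = 0.0175). Mbp, the myelin basic protein gene that also makes forms found in immune cells, averaged 62.7 ± 25 CPM in Clec4f-Cre positive and 7.86 ± 3.45 CPM in Cre-negative libraries (SD, n = 3 each). Arhgap22, Coro2a, Acsl3 and Tgfbi are named after their values were seen.

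Colec12, a scavenger receptor gene, had 41.4, 97.3 and 33.7 CPM in Clec4f-Cre positive and 3.52, 6.42 and 5.11 CPM in Cre-negative libraries (log2 change 3.49 ± 0.45, edgeR adjusted p = 0.016). With TMM scaling over all libraries it averaged 7.59 CPM in other Kupffer-niche recruited macrophages and 58.5 CPM in the Tim4-positive NASH Kupffer cells of the same set. Clec4f-Cre positive replicate 2, the highest library for Timd4, was also the highest for Colec12, whose log2 change was 2.88 without it. The part of Tim4-positive cells in these values was not tested. Of 15 tested lipid scavenging genes Colec12 was the 1 called by edgeR, while DESeq2 called 3 higher (Colec12, Marco and Stab1) and 0 lower. The median of that list was -0.13 and 6 of the 15 were above 0. Abcb1b, a multidrug efflux pump, averaged 25.7 ± 9.7 CPM in Clec4f-Cre positive and 1.81 ± 1.08 CPM in Cre-negative libraries (SD, n = 3 each). Its near copy Abcb1a had a log2 change of 1.3 ± 0.49 that did not pass (adjusted p = 0.455), and counting could split reads between them. Klra17, of the Ly49 lectin receptor family, averaged 35.1 ± 9.34 CPM in Clec4f-Cre positive and 6.79 ± 2.79 CPM in Cre-negative libraries, while the related Klra2 did not pass, at 0.15 ± 0.2 (adjusted p = 0.929). Tgfbi, a matrix protein gene induced by TGF-beta, averaged 616 ± 132 CPM in Clec4f-Cre positive and 248 ± 28.2 CPM in Cre-negative libraries. Tgfbi had the largest adjusted p of the called higher genes, 0.049.

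Acsl3, a ligase that couples long fatty acids to coenzyme A, had 30.7, 21.4 and 21.2 CPM in Clec4f-Cre positive and 5.99, 4.76 and 4.84 CPM in Cre-negative libraries, a log2 change of 2.23 ± 0.32 (edgeR adjusted p = 0.0266). In the GENCODE vM21 annotation, 244 bases of its exons are shared with Utp14b on the same strand, which had 30.3, 29.4 and 26.7 CPM in Clec4f-Cre positive and 9.16, 9.04 and 4.58 CPM in Cre-negative libraries (adjusted p = 0.053), so the source of part of these reads is uncertain. Of the 24 called genes, 9 share exon bases with a gene on the opposite strand, among them Adgrl3 with Gm16054 (1582 bases). The strand setting of the counting is not given in the sources used here.

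The 4 genes that fell included an amino acid transporter and an adhesion receptor. Adgrl3 (NM_001347367, chromosome 5, 81020571 to 81802142), the latrophilin 3 gene, had 94.7, 73.7 and 80.3 CPM in Clec4f-Cre positive and 259, 265 and 233 CPM in Cre-negative libraries, a log2 change of -1.61 ± 0.19 (edgeR adjusted p = 0.0118). Slc7a2 (NM_007514, chromosome 8, 40862367 to 40922070), a carrier of arginine and other cationic amino acids, had 110, 49.4 and 81.3 CPM in Clec4f-Cre positive and 484, 218 and 333 CPM in Cre-negative libraries (-2.11 ± 0.35, adjusted p = 0.0487). Mpp6, a membrane scaffold gene, had 42.6, 49.8 and 50 CPM in Clec4f-Cre positive and 96.5, 107 and 106 CPM in Cre-negative libraries (-1.12 ± 0.18, adjusted p = 0.0487). Mpp6 and Adgrl3 showed little spread within either group, Slc7a2 more. Over 14 other settings Adgrl3 was past the threshold in 11, Slc7a2 in 8, Mpp6 in 4 and Plvap, given next, in 7. Plvap (NM_032398, chromosome 8, 71497753 to 71511769), a protein of the diaphragms of fenestrated endothelium, had 6.15, 14.4 and 7.22 CPM in Clec4f-Cre positive and 38.4, 89.9 and 55.2 CPM in Cre-negative libraries (-2.68 ± 0.4, adjusted p = 0.0315).

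Markers of sinusoidal endothelium were read beside Plvap. Of 12 tested markers 0 were called by edgeR, 6 had an unadjusted p under 0.05, and DESeq2 called 1 higher (Fcgr2b) and 2 lower (Dnase1l3 and Lyve1). The median log2 change was -0.57, and 10 of the 12 were below 0. The list summed to 420 to 781 CPM in Clec4f-Cre positive and 536 to 783 CPM in Cre-negative libraries, so the summed levels overlap. Lyve1, a hyaluronan receptor of this endothelium and of some macrophages, had 2.05, 3 and 2.89 CPM in Clec4f-Cre positive and 13.4, 52.8 and 13.2 CPM in Cre-negative libraries, at an edgeR adjusted p of 0.0594. No marker of the list was at 0 in all 6 libraries, and the part of endothelial RNA in the Plvap and Lyve1 values was not tested. In bulk RNA, fewer cells of a type and less RNA per cell cannot be told apart.

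Genes of LXR-controlled cholesterol efflux and of lipoprotein handling had mostly positive log2 changes with Cre, and edgeR called none. Of 17 tested genes on that list edgeR called 0, DESeq2 called 3 higher and 0 lower (Abcg1 and Mylip among them), and 8 had an unadjusted p under 0.05. The median log2 change was 0.44 and 14 of the 17 were above 0, against 5638 of the 11480 genes tested. The groups did not overlap in 6 genes that were higher and 2 that were lower, against 7.17% and 7.03% of all tested genes. An unadjusted p under 0.05 was found for 8.25% of all tested genes. Summed over the list, the level was 11900, 10600 and 9050 CPM in Clec4f-Cre positive and 9080, 7270 and 7380 CPM in Cre-negative libraries, so that 1 Cre-negative library reached the lowest Clec4f-Cre positive one.

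Among the efflux pumps, Abca1 had 2140, 1700 and 1590 CPM in Clec4f-Cre positive and 2390, 1480 and 1530 CPM in Cre-negative libraries. Its ranges coincide, with a log2 change of 0.01 ± 0.25 (edgeR adjusted p = 0.998) that ran from -0.12 to 0.31 over 14 other settings. Abcg1, which passes cholesterol to high-density lipoprotein, had 637, 506 and 666 CPM in Clec4f-Cre positive libraries, all above the 311, 358 and 364 CPM of Cre-negative ones (0.81 ± 0.19, adjusted p = 0.142). Abca9, a transporter gene of macrophages, had 189, 270 and 282 CPM in Clec4f-Cre positive and 332, 443 and 285 CPM in Cre-negative libraries (-0.52 ± 0.23, adjusted p = 0.604). The apolipoprotein gene Apoe had 1170, 2640 and 2900 CPM in Clec4f-Cre positive and 545, 1450 and 925 CPM in Cre-negative libraries, with overlapping ranges (1.2 ± 0.4, adjusted p = 0.345). Pltp, the phospholipid transfer protein gene, had 372, 1480 and 884 CPM in Clec4f-Cre positive and 400, 547 and 386 CPM in Cre-negative libraries, where Clec4f-Cre positive replicate 1 lay below all Cre-negative libraries (adjusted p = 0.477).

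Mylip, a ubiquitin ligase gene that LXR switches on, had 114, 92.3 and 91.6 CPM in Clec4f-Cre positive and 54.6, 47.1 and 50.6 CPM in Cre-negative libraries (log2 change 0.96 ± 0.19, edgeR adjusted p = 0.0772), with all Clec4f-Cre positive libraries above the Cre-negative ones. Scarb1, a receptor for high-density lipoprotein, had 203, 405 and 331 CPM in Clec4f-Cre positive and 417, 599 and 531 CPM in Cre-negative libraries (-0.72 ± 0.26, adjusted p = 0.436). Lpcat3, a phospholipid-remodelling enzyme under LXR control, had 72.1, 65.4 and 52.4 CPM in Clec4f-Cre positive and 50.7, 40.4 and 49.3 CPM in Cre-negative libraries (adjusted p = 0.675).

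The lists of fatty acid and cholesterol synthesis genes had medians above 0 and no call by edgeR. Of 17 tested fatty acid genes 0 were called, 5 had an unadjusted p under 0.05, DESeq2 called 1 higher (Srebf1), and the median log2 change was 0.21. Srebf1, which encodes SREBP1, had 76.7, 134 and 110 CPM in Clec4f-Cre positive and 47.9, 58.7 and 60.3 CPM in Cre-negative libraries (0.95 ± 0.23, edgeR adjusted p = 0.156). Fatty acid synthase, Fasn, had 49.2, 85.9 and 74.8 CPM in Clec4f-Cre positive and 27.8, 33.5 and 47.6 CPM in Cre-negative libraries (0.95 ± 0.28, adjusted p = 0.246). Together with Acaca, Elovl6 and Scd2 these are the 5 genes of the list whose groups did not overlap, all higher, against 7.17% of all tested genes. Scd1, a desaturase that LXR switches on in liver, had 215, 297 and 162 CPM in Clec4f-Cre positive and 212, 127 and 331 CPM in Cre-negative libraries, with overlapping ranges. Of 22 tested cholesterol synthesis genes edgeR called 0, 5 had an unadjusted p under 0.05, DESeq2 called 1 higher (Srebf2), and the median was 0.3. The groups did not overlap in 5 of the 22 (Cyp51, Hmgcs1, Sc5d, Srebf2 and Stard4), all higher, against the same 7.17%. Srebf2, the SREBP2 gene, had 78.7, 172 and 144 CPM in Clec4f-Cre positive and 72.2, 52.8 and 51.7 CPM in Cre-negative libraries (1.17 ± 0.28, adjusted p = 0.152).

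**Figure D3:**
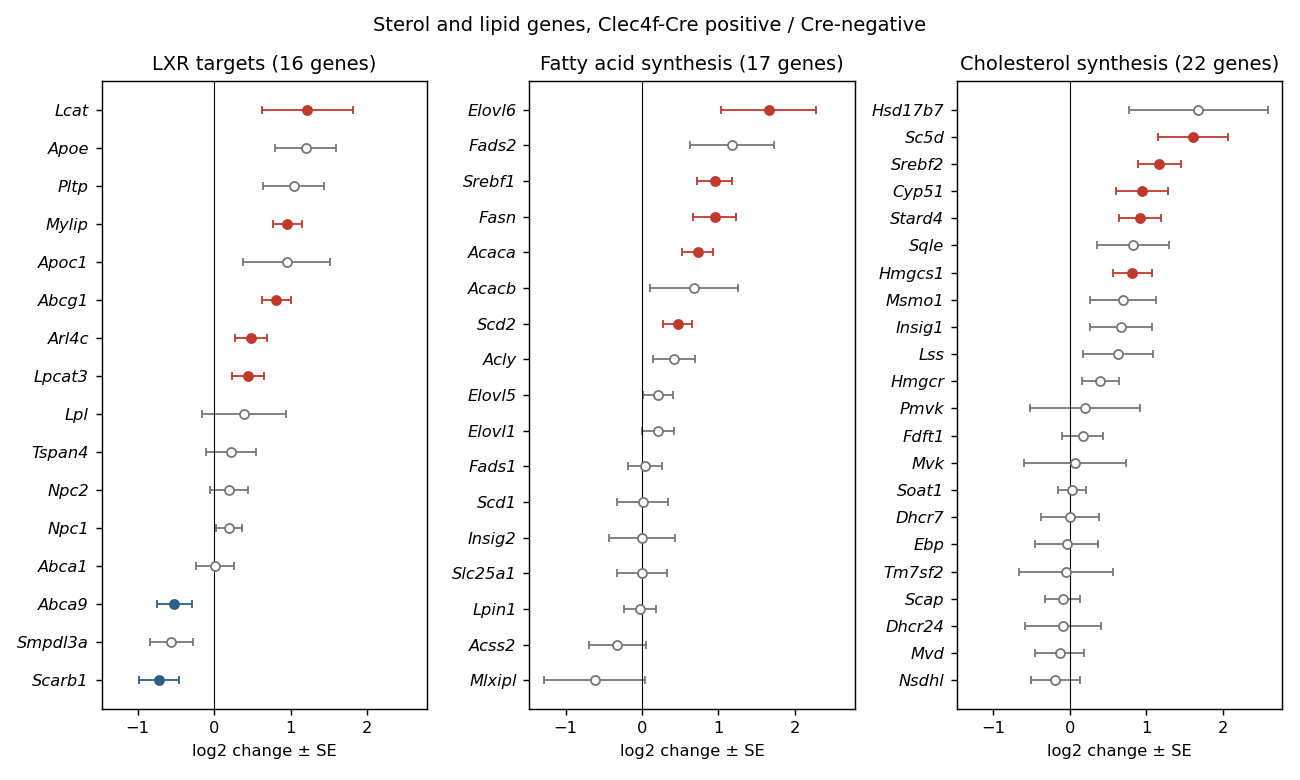
Log2 change (Clec4f-Cre positive over Cre-negative, bars of 1 SE) of genes of the lists of LXR targets (16 of 17 tested), fatty acid synthesis (17) and cholesterol synthesis (22). Filled red points are genes whose 3 Clec4f-Cre positive libraries all lie above the 3 Cre-negative ones, filled blue points the reverse and open points overlapping groups, with 0 called by edgeR in any panel.

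Upstream sequences of 3 of these lipid genes are shown because they hold the letters of an LXR element, a pair of receptor half-sites spaced by 4 bases. They are RefSeq sequences (GRCm38.p6) of the 250 bases before the counted start, with the match to GGTNA and GGTCA parted by 5 bases, read on the opposite strand, in capitals. Abca1 (minus strand, chr4:53159896-53160145) has it at -67, Fasn (minus strand, chr11:120824548-120824797) at -225 and Acsl3 (plus strand, chr1:78657575-78657824) at -112:
Abca1: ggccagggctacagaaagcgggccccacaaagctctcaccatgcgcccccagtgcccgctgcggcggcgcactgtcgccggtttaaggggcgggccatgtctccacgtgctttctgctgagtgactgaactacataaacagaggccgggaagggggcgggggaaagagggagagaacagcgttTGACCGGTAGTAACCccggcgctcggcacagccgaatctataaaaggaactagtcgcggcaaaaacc
Fasn: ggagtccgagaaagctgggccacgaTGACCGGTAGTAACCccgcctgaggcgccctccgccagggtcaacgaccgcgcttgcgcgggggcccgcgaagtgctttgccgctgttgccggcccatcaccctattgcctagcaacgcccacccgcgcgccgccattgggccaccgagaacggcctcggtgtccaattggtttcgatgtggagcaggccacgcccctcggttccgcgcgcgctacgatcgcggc
Acsl3: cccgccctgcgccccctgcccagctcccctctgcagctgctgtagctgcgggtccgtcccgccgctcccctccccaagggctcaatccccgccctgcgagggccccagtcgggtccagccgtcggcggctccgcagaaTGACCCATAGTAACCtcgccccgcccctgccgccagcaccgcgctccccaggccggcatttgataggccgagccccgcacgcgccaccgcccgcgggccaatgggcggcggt
These letters were found in 1 of 10 matched promoters of the LXR target list, 1 of 13 of the fatty acid list, 1 of 13 called higher genes, 0 of 2 called lower genes and 0.165% of 16375 promoters. The stricter repeat of AGGTCA parted by 4 bases, each copy of which also counts under the looser letters, was in 0.00611% of promoters and in none of these lists or the called genes. TCACCCCAC, letters of an SREBP element, was in 0.446% of promoters, in 1 of 16 of the cholesterol list (Hmgcs1) and in none of the other lists or the called genes. Across these 3 genes the values differed, since Abca1 had a log2 change of 0.01, Fasn of 0.95 and Acsl3 of 2.23, of which the last was called.

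Kupffer identity genes split in direction, and single libraries carried much of it. Of 31 tested genes edgeR called 0, 11 had an unadjusted p under 0.05, and DESeq2 called 3 higher (Il18bp, Marco and Timd4) and 2 lower (Cd207 and Spic). The median log2 change was 0.17. The list summed to 6940, 23500 and 14100 CPM in Clec4f-Cre positive and 11800, 15700 and 13700 CPM in Cre-negative libraries, so Clec4f-Cre positive replicates 1 and 2 were the lowest and the highest of all 6. Timd4 had a log2 change of 4 ± 0.89 (edgeR adjusted p = 0.116) from the 6 values given with the gate genes, and of 2.71 without Clec4f-Cre positive replicate 2 (adjusted p = 0.134). Marco, a scavenger receptor gene, had 17.2, 342 and 35.8 CPM in Clec4f-Cre positive and 8.81, 8.8 and 8.88 CPM in Cre-negative libraries, its group mean resting on replicate 2 (adjusted p = 0.15). Cd163, the haemoglobin scavenger receptor gene, had 49.6, 947 and 429 CPM in Clec4f-Cre positive and 59.9, 75.9 and 93.7 CPM in Cre-negative libraries, with replicate 1 below all Cre-negative libraries (adjusted p = 0.225). Over 14 other settings the log2 change of Clec4f ran from -0.57 to 0.74, so its sign changed with the setting.

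Of the 31 Kupffer genes, 3 had all Clec4f-Cre positive libraries below the Cre-negative ones and 3 had the reverse, shares near those of all tested genes (7.03% and 7.17%). Those below are Cd207, Spic and Slc40a1, none of which passed in edgeR. Cd207, the langerin gene, had 54.1, 107 and 57 CPM in Clec4f-Cre positive and 151, 259 and 209 CPM in Cre-negative libraries (log2 change -1.5 ± 0.3, edgeR adjusted p = 0.0815). Spic, a transcription factor of iron-recycling macrophages, had 29.5, 68.9 and 32 CPM in Clec4f-Cre positive and 129, 77.5 and 134 CPM in Cre-negative libraries (-1.37 ± 0.34, adjusted p = 0.16). Slc40a1, the iron exporter ferroportin, had 412, 2040 and 1100 CPM in Clec4f-Cre positive and 2180, 3070 and 2630 CPM in Cre-negative libraries (-1.15 ± 0.45, adjusted p = 0.495). Among 26 lineage transcription factors edgeR called 1, Runx3, and DESeq2 called 3 higher (Rbpj and Runx3 among them) and 2 lower (Maf and Spic). The transcription factor gene Maf had 848, 716 and 517 CPM in Clec4f-Cre positive and 1300, 1280 and 1250 CPM in Cre-negative libraries (-0.88 ± 0.22, edgeR adjusted p = 0.163).

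**Figure D4:**
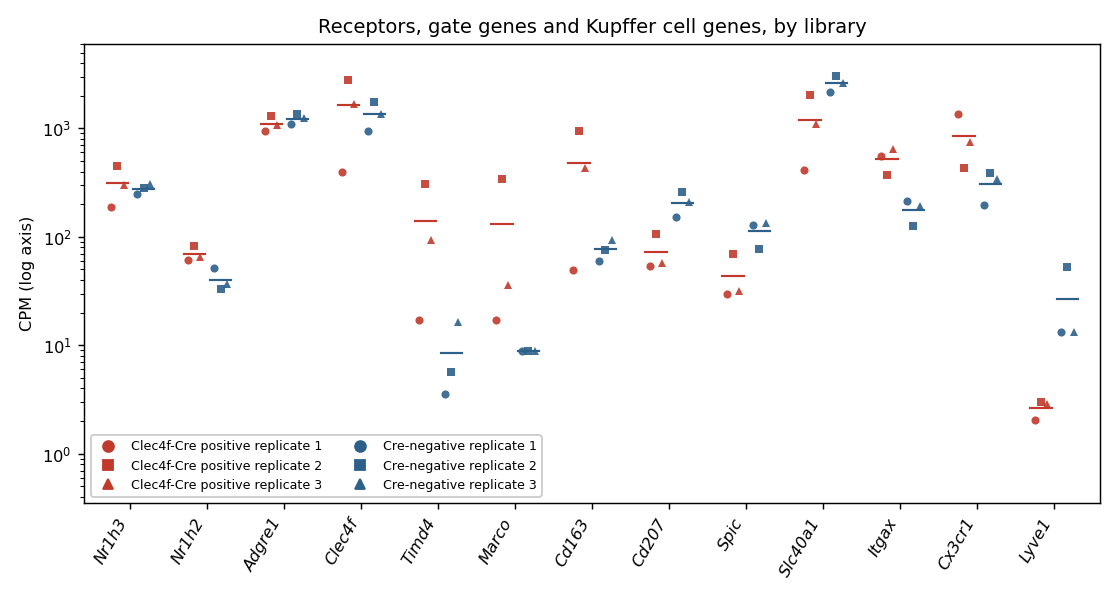
CPM (log axis) of the LXR genes, the gate genes and named macrophage genes in each library, red for Clec4f-Cre positive and blue for Cre-negative, with a shape for each replicate number and a bar for the mean of 3. Clec4f-Cre positive replicate 2 is highest for Clec4f, Timd4, Marco and Cd163, and edgeR called none of the 13 genes.

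Genes of lipid-associated macrophages, the Trem2-expressing state of fatty tissues, had 21 tested members with 0 called by edgeR, 3 at an unadjusted p under 0.05 and 2 called higher by DESeq2 (Cd9 and Itgax). The median log2 change was 0.19. Itgax, which encodes CD11c, had 551, 374 and 650 CPM in Clec4f-Cre positive and 216, 126 and 191 CPM in Cre-negative libraries (1.56 ± 0.27, edgeR adjusted p = 0.053). Cd9, a tetraspanin gene, had 46.3, 26.6 and 38.5 CPM in Clec4f-Cre positive and 20.4, 13.3 and 8.88 CPM in Cre-negative libraries (1.39 ± 0.35, adjusted p = 0.159). Trem2 itself had 43.5, 50.8 and 41.4 CPM in Clec4f-Cre positive and 22.2, 38.8 and 31.2 CPM in Cre-negative libraries (0.55 ± 0.25, adjusted p = 0.622). The state's marker Gpnmb overlapped between groups, with 337, 212 and 177 CPM in Clec4f-Cre positive and 270, 146 and 150 CPM in Cre-negative libraries. Plin2, which coats lipid droplets, had 235, 287 and 225 CPM in Clec4f-Cre positive and 173, 225 and 179 CPM in Cre-negative libraries (adjusted p = 0.706).

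Of 21 tested chemokine and receptor genes edgeR called 1, Ccr2, and DESeq2 called 4 higher (Ccl9, Ccr2, Cx3cr1 and Cxcl14) and 1 lower (Ccr3), with 11 at an unadjusted p under 0.05 and a median of 0.13. Cx3cr1, the fractalkine receptor of monocytes and of macrophages early in the niche, had 1350, 433 and 753 CPM in Clec4f-Cre positive and 196, 390 and 338 CPM in Cre-negative libraries (log2 change 1.45 ± 0.39, edgeR adjusted p = 0.202). Clec4f-Cre positive replicate 1 was thus highest for Cx3cr1 and lowest for Clec4f. Cxcl14 had 38.1, 46.8 and 44 CPM in Clec4f-Cre positive and 6.69, 18.8 and 9.96 CPM in Cre-negative libraries (1.84 ± 0.35, adjusted p = 0.0725). Ccr3, the eotaxin receptor gene, had 3.28, 4.6 and 5.77 CPM in Clec4f-Cre positive and 9.86, 281 and 36.3 CPM in Cre-negative libraries, its group mean resting on Cre-negative replicate 2 (-4.54 ± 1.03, adjusted p = 0.126).

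Inflammatory and antiviral gene lists had no call by edgeR, and their summed levels overlapped between the groups. Of 21 tested cytokine and NF-kB genes edgeR called 0, 7 had an unadjusted p under 0.05, DESeq2 called 2 lower (Il10 and Il1a), and the median log2 change was -0.33. The list summed to 1660 to 2420 CPM in Clec4f-Cre positive and 1940 to 3090 CPM in Cre-negative libraries. Il1a had 66.4, 66.7 and 31.7 CPM in Clec4f-Cre positive and 254, 92.3 and 219 CPM in Cre-negative libraries (-1.78 ± 0.39, edgeR adjusted p = 0.111). Tlr4 had 181, 225 and 179 CPM in Clec4f-Cre positive and 284, 286 and 330 CPM in Cre-negative libraries (-0.62 ± 0.18, adjusted p = 0.261). Tlr2, the toll-like receptor gene for lipopeptides, went the other way, with 116, 121 and 87.1 CPM in Clec4f-Cre positive and 56.4, 73.3 and 68.9 CPM in Cre-negative libraries (0.71 ± 0.2, adjusted p = 0.244). Of 24 interferon response genes 0 were called by either tool and 4 had an unadjusted p under 0.05, with a median of -0.1. The groups did not overlap in 4 of the 24 (Ddx58, Ifi44, Ifit2 and Isg15), all lower, against 7.03% of all tested genes. The 24 genes summed to 3590 to 4470 CPM in Clec4f-Cre positive and 3550 to 4890 CPM in Cre-negative libraries. Matrix and protease genes had 0 of 19 called by edgeR, 5 at an unadjusted p under 0.05 and a median of 0.04, while DESeq2 called Vegfa higher and Mmp13 lower. The collagenase gene Mmp13 had 52.1, 20.8 and 26.9 CPM in Clec4f-Cre positive and 105, 104 and 154 CPM in Cre-negative libraries (-1.89 ± 0.33, edgeR adjusted p = 0.0571).

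Lists of general cell functions had no called member by edgeR or DESeq2. Each is given with its tested genes, its median log2 change and its genes at an unadjusted p under 0.05. MHC class I had 16, -0.02 and 0, and MHC class II 11, 0 and 2. Oxidative phosphorylation had 20, 0.05 and 0, ribosomal proteins 20, 0.07 and 0, fatty acid oxidation 16, 0 and 2, and glycolysis 17, 0.05 and 2. Immediate early and stress genes had 21, 0.04 and 3, the unfolded protein response 15, 0.25 and 2, and lipid droplet genes 13, 0.12 and 0. Cell cycle genes had 24, -0.24 and 0, apoptosis and survival genes 21, -0.3 and 6, and nuclear receptors 19, 0.02 and 4. The proliferation gene Mki67 had 251, 198 and 329 CPM in Clec4f-Cre positive and 254, 381 and 336 CPM in Cre-negative libraries, with overlapping ranges. In 4 further lists edgeR called 0 genes and DESeq2 a few. These were 2 higher of 19 efferocytosis genes (Stab1 and Timd4, with 3 at an unadjusted p under 0.05), 2 higher of 18 complement genes (C2 and Itgax, with 2), 1 higher of 18 macrophage core genes (with 2) and 1 lower of 18 iron genes (Tfrc, with 4).

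Markers of other cell types, read as sums, overlapped between the groups. Hepatocyte markers summed to 565 to 1050 CPM in Clec4f-Cre positive and 355 to 1090 CPM in Cre-negative libraries. Neutrophil markers summed to 239 to 295 CPM in Clec4f-Cre positive and 242 to 292 CPM in Cre-negative libraries, and dendritic cell markers to 1180 to 1450 CPM and 1150 to 1330 CPM in the same groups. Stellate cell markers summed to 154 to 273 CPM in Clec4f-Cre positive and 197 to 416 CPM in Cre-negative libraries. In these 4 lists both tools called 0 of 15, 3, 5 and 11 tested genes, with 0, 1, 0 and 2 at an unadjusted p under 0.05. Of the T and NK cell markers DESeq2 called 1 higher, the interleukin-7 receptor gene Il7r, at 18, 5.6 and 8.18 CPM in Clec4f-Cre positive and 1.41, 1.19 and 1.88 CPM in Cre-negative libraries (edgeR adjusted p = 0.111). Of the defining markers, Ly6g and Camp of neutrophils and Mcpt8, Ms4a2, Fcer1a and Cma1 of basophils and mast cells had 0 counts in all 6 libraries. Further markers too low to test did have counts. The dendritic cell marker Flt3 had 10, 2 and 37 counts in Clec4f-Cre positive libraries and 0 in each Cre-negative one. In the same order, the neutrophil markers S100a9 (0, 1 and 8 against 0, 0 and 0) and Cxcr2 (0, 1 and 8 against 0, 0 and 1) were highest in Clec4f-Cre positive replicate 3. S100a8 (0, 0 and 2 against 0, 1 and 6) and Ltf (0, 0 and 1 against 1, 4 and 0) went the other way.

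The called genes were then read in sorted cells of the same series that carry no floxed allele in their labels. Mean CPM, TMM-scaled over all libraries, are given for Clec4f-Cre positive, Cre-negative and other Kupffer-niche recruited macrophages. Ccr2 (170, 34.9 and 181), Coro2a (120, 40.8 and 120) and Cd93 (259, 74.5 and 221) had the Cre-negative mean apart from the other 2. Runx2 (98.3, 11.3 and 18.7) and Fcrl5 (52.5, 0.443 and 1.25) had the Clec4f-Cre positive mean apart. The part of library makeup in these levels was not tested. Between NASH and healthy Kupffer cells (2 libraries each, Tim4-positive cells), edgeR called 11.2% of 14407 genes higher and 9.56% lower. Of the 20 genes higher with Cre, 12 were higher and 0 lower in NASH Kupffer cells, with Cd93 at a log2 change of 4.36 ± 0.3, Arhgap22 at 3.89 ± 0.31, Abcb1b at 3.39 ± 0.38, Runx3 at 2.8 ± 0.21 and Ccr2 at 2.58 ± 0.23. Of the 4 genes lower with Cre, 1 was higher in NASH Kupffer cells, Slc7a2, at 3.16 ± 0.41, and 0 were lower. Across 11321 genes tested in both comparisons the log2 changes had a Pearson correlation of 0.23 and a Spearman correlation of 0.21, as a description across genes. The libraries of the 2 comparisons are different ones.

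**Figure D5:**
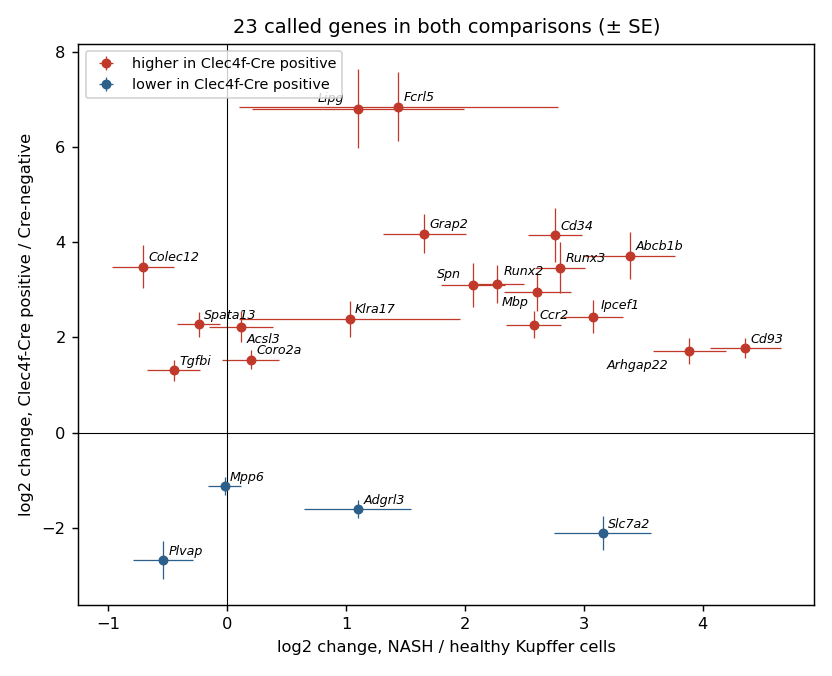
Log2 change between Clec4f-Cre positive and Cre-negative recruited macrophages against the log2 change between NASH and healthy Kupffer cells for 23 of the 24 called genes, with bars of 1 SE. Of the 19 red points, 11 were called higher in NASH Kupffer cells and 0 lower, and among the 4 blue points Slc7a2 lies at 3.16 on the Kupffer cell axis.

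Between Kupffer-niche and Ly6C-high recruited macrophages of NASH livers (2 libraries each), edgeR called 18.8% of genes higher and 20.1% lower in the niche. Of the 20 genes higher with Cre, 4 were higher in niche cells (Acsl3, Arhgap22, Cd34 and Klra17) and 9 lower, among them Ccr2 at -2.9 ± 0.2, Mbp at -2.58 ± 0.23, Spn at -2.21 ± 0.23, Runx2 at -1.97 ± 0.17 and Runx3 at -1.74 ± 0.16. Of the 4 genes lower with Cre, Adgrl3 and Slc7a2 were higher in niche cells, at 3.39 ± 0.49 and 2.33 ± 0.4, and Plvap was lower, at -1.34 ± 0.25. Over all 11321 genes the correlation between these log2 changes was -0.08 (Pearson) and -0.07 (Spearman), as a description across genes.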

How the data were processed

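The authors deposited raw counts of polyadenylated RNA for 40458 RefSeq transcripts of mm10, counted over exons with HOMER per the file headers, and a table of TPM (counts per length, scaled to a fixed sum) from the same program. STAR, HOMER and DESeq2 are named in the submitters' processing notes without versions. Trimming, read filters and the strand setting are not given in the sources used here. For each symbol the transcript with the highest total count over 57 libraries was kept (24941 genes, 7630 of them with more than 1 transcript), since a read in a shared exon counts for each isoform.

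The 6 libraries were fitted in R 4.3.3 by the quasi-likelihood test of edgeR 4.0.16, with 4 residual degrees of freedom. Low genes were removed by filterByExpr (lowest count 10, lowest total 15), libraries were scaled by TMM, and p-values were adjusted by Benjamini-Hochberg over 11480 genes. The other comparisons come from 1 fit of 12 libraries of 6 groups. CPM are TMM-scaled unless stated to be of all counts. The TPM values, deposited by the authors, served only in alternatives, on log2(TPM + 1) and log2(TPM + 0.1). DESeq2 1.42.0 and limma 3.58.1 were alternatives. Scripts were tested on simulated data. Intervals of count ratios are exact binomial (95%) and cover counting error only. Figures used matplotlib 3.10.9. Values of a few genes are not reported here.

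Genes are named by membership of the gene lists, or as the 12 largest changes in each direction (means of at least 10 CPM, groups not overlapping) or the 6 smallest p-values in each direction among called genes. The comparison and the lists were chosen with earlier results of these data known. The labels do not say that replicates are separate animals, so a p-value here speaks of the spread among these libraries, which may be technical. Within groups the libraries correlated at 0.915 to 0.968 (log CPM) and differed by a chi-square per degree of freedom of 10.5 to 24.4. That is above the sampling noise of 1 library sequenced again. Each was counted as 1 replicate, though these values do not show that the libraries are of separate animals. Between groups the correlations were 0.9 to 0.955.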

Additional observations from a re-analysis of the deposited data

How the results depend on the processing

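The counts of genes higher and lower were 20 and 4. They were within 1.5 times of that with DESeq2 size factors in edgeR, upper quartile scaling, a stricter filter, the transcript chosen over the 6 libraries, and with Rn45s and Malat1 left out (28 and 4, chosen after seeing the data). No filter on low counts gave 197 and 76, DESeq2 161 and 71, limma-voom 5 and 1, limma on log2(TPM + 1) 2 and 0, and limma on log2(TPM + 0.1) 0 and 0, where 536 genes were higher and 370 lower at an unadjusted p under 0.05. With 1 library left out at a time the counts ran from 0 to 68 higher and from 0 to 13 lower. The libraries that moved a count by over 1.5 times were Clec4f-Cre positive replicate 1 (31 higher), replicate 2 (68 and 13) and replicate 3 (3 and 0) and Cre-negative replicates 1 and 3 (0 and 0 each). After seeing the data, Clec4f-Cre positive replicate 1 was left out together with Cre-negative replicate 1 (4 higher, 3 lower), and Clec4f-Cre positive replicate 2 together with Cre-negative replicate 1 (60 and 11). The cause of these shifts was not tested. None of the 24 called genes changed sign in the 14 settings in which single genes were refitted. This is no test of them, since the settings reuse the same libraries and the groups of these genes do not overlap. The settings in which a called gene was past the threshold ran from 4 of 14 (Mpp6) to 11 of 14 (Adgrl3, Fcrl5 and Grap2).

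Whether the replicate numbers pair the libraries is not settled by these data. The deviations of same-numbered libraries from their group means correlated at 0.232, 0.041 and -0.03. Those of differently numbered libraries correlated at -0.204 to 0.272. A fit with a replicate block called 79 genes higher and 33 lower, with all 24 among them.

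The count of genes changed between NASH and healthy Kupffer cells was 2988. It was 3497 with a replicate block and ran from 846 (without NASH Kupffer replicate 2) to 2031 with 1 library left out, which leaves a lone library assumed to vary like the others. Between Kupffer-niche and Ly6C-high macrophages it was 5613, 6003 with the block, and 3417 to 4236 with 1 library left out. Depth limits what can be seen below about 10 counts a library, the filter's minimum.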
